A study of Mus musculus with 12 samples.

Results

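Lbx1, Skor1, Tlx3, Pax2, Pax3, Pax7, Pax8, Lhx1, Lhx5 and Isl1 are transcriptional regulators that pattern the developing spinal cord. They were read from the expression table by their Ensembl identifiers, and all 10 were found among 47069 distinct identifiers. The libraries held total RNA of GFP+ cells from Pdgfra-H2BGFP mice, whose Pdgfra locus drives a nuclear green fluorescent protein. Pdgfra encodes a growth factor receptor and marks oligodendrocyte precursor cells (OPCs), among other cells. The 4 groups combined 2 ages, E13.5 (a stage in embryonic days) and postnatal day 7 (P7), with 2 regions, brain and spinal cord, and held 3 libraries each. Every group carried the same reporter allele, on 1 copy of Pdgfra per the study's methods, and no group lacked it. The methods also say that brain means forebrain and that cells of several animals were pooled for a library. Embryos were dissociated by mechanical means and P7 animals with the enzyme papain, so that age and dissociation cannot be told apart. The reporter protein outlasts the Pdgfra transcript, so GFP+ cells can include cells that have left the precursor state. Nothing in the labels says whether the 3 pools of a group were fully separate, and p-values measure the spread between these libraries only.

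The spinal cord is laid out in domains along its dorsal to ventral axis, and each domain is recognised by a combination of transcription factors. Pax3 and Pax7 are paired-box factors of dividing progenitors in the dorsal part. Lbx1, a homeobox factor, acts in newly born dorsal interneurons, and Skor1 is a corepressor first described as a partner of LBX1. Tlx3 is a homeobox factor that promotes an excitatory transmitter choice in dorsal neurons. Pax2, Pax8, Lhx1 and Lhx5 are found together in inhibitory interneurons. Isl1, a LIM homeobox factor, is used by motor neurons, a dorsal interneuron class and sensory neurons, and in the forebrain by striatal neurons. In the nervous system, these genes are described mainly in neurons and their progenitors, not in the oligodendrocyte lineage the reporter is used to mark. Roles of these genes in other tissues, muscle among them, are not covered here.

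The sequence just before the start site is shown for 4 factors that stand for the kinds of pattern described below: Skor1 and Tlx3, which were near 0 in brain, Lhx1, which had reads in both regions, and Isl1, which was higher in brain. RefSeq start sites on GRCm38.p6 were given for 7 of the 10 factors, and 250 bases before the start are printed 5′ to 3′ on the gene's own strand, which is the minus strand for all 4. Capitals mark ATTA or its reverse complement TAAT, the core bound by many homeodomain proteins.
Skor1 (chr9:63148962-63149211): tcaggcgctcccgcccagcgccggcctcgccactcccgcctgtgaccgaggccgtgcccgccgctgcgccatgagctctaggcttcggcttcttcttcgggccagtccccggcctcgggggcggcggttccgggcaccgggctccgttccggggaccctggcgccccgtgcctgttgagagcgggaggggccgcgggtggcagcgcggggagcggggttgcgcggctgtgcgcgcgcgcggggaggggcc
Tlx3 (chr11:33203589-33203838): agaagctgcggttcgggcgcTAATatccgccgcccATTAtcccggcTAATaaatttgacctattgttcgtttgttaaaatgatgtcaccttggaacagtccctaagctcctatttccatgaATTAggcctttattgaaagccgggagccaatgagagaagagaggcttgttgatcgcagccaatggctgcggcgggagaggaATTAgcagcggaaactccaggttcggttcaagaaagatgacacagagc
Lhx1 (chr11:84525535-84525784): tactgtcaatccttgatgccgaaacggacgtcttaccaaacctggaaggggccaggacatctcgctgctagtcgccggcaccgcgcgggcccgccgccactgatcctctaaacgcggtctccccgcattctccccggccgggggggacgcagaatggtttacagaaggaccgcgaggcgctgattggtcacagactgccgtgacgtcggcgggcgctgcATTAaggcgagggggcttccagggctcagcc
Isl1 (chr13:116309689-116309938): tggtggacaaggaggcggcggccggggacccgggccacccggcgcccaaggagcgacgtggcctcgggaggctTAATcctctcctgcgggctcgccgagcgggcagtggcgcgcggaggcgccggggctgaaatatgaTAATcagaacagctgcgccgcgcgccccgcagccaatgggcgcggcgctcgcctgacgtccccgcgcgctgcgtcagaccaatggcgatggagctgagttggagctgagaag
The windows differed in base composition. Skor1 had 78.8% G or C in the window printed, which is that of the gene's outermost start (64.8% and 65.6% at its other 2 RefSeq starts), Isl1 71.2%, Lhx1 64.8% and Tlx3 48.8%, against a median of 52.4% over 32851 promoter windows of the same length. ATTA occurred at 5 places in the Tlx3 window, at 2 in Isl1 and at 1 in Lhx1, and it was not found in the Skor1 window. It was present on at least 1 strand in 54.9% of all windows. CCAAT, searched on both strands, occurred at 2 places in Tlx3, at 2 in Isl1 and at 1 in Lhx1, and 33.8% of all windows held it. The longer TAATTA, which contains ATTA, was in none of the 4 windows and in 4.84% of all windows.

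Values are CPM, a read count divided by a library size that the authors rescaled. Because every value was a whole multiple of 1 read, read numbers could be recovered, and they ranged from 12566345 to 38790312 per library. For a group of 3 libraries, the level of 3 reads in all lay between 0.0295 CPM (P7 spinal cord) and 0.0664 CPM (E13.5 spinal cord). Among the 12 libraries E13.5 spinal cord replicate 3 stood apart, with 40.9% of its reads in protein-coding genes against 82.4% to 91.1% in the others. The calls of the 10 factors on E13.5 spinal cord, for region and for age, are given without it too. Pooled ratios, levels per length, markers and the other domain factors are given only with it. In both P7 groups, replicates 1 and 2 were closer to each other than to replicate 3 but differed by more than read sampling, and averaging them changed no call among the 10 factors. Transcript levels come from mixed cells, in which fewer cells of a type and less RNA per cell cannot be told apart.

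In E13.5 spinal cord all 10 factors were detected in every library. Lbx1 (ENSMUSG00000025216, chromosome 19, 45232684 to 45235812, minus strand) had 15.01, 13.4 and 13.3 CPM in the 3 E13.5 spinal cord libraries and 0.0475, 0.0878 and 0.161 CPM in E13.5 brain, where these values stood for 6 reads in all. The groups were far apart, and the library of unusual composition, replicate 3, lay beside the other 2. Skor1 (ENSMUSG00000022245, chromosome 9, 63138170 to 63148961, minus strand) had 29.5, 22.7 and 37.3 CPM in E13.5 spinal cord and 0.143, 0.176 and 0.912 CPM in E13.5 brain. It had the highest CPM of the 10 factors, and its brain value was highest in replicate 3. From pooled reads, Lbx1 was 146-fold higher in E13.5 spinal cord than in E13.5 brain (95% exact interval 66.6 to 399) and Skor1 70.6-fold higher (47.2 to 111). These intervals cover counting error only, since copies made by PCR are not independent molecules.

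Tlx3 (ENSMUSG00000040610, chromosome 11, 33200752 to 33203589, minus strand) had 7.92, 7.82 and 6.24 CPM in E13.5 spinal cord. In E13.5 brain it was at 0, 0.0878 and 0.268 CPM, 7 reads in all. All 3 spinal cord libraries lay far above all 3 brain libraries, and pooled reads gave a ratio of 68.3 (32.8 to 171).

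Of the 4 factors named above for inhibitory interneurons, Pax2 and Pax8 were near 0 in E13.5 brain and Lhx1 and Lhx5 were not. Pax2 (ENSMUSG00000004231, chromosome 19, 44756045 to 44837871, plus strand) had 10.4, 7.91 and 13.2 CPM in E13.5 spinal cord and 0, 0 and 0.161 CPM in E13.5 brain. Its 430 spinal cord reads against 3 brain reads gave a ratio of 198 (67.3 to 964). Pax8 (ENSMUSG00000026976, chromosome 2, 24420560 to 24475599, minus strand) had 20.1, 18.2 and 23.3 CPM in E13.5 spinal cord and 0, 0 and 0.804 CPM in E13.5 brain, so that all 15 brain reads came from replicate 3. That same brain library also had the highest brain value of Skor1, Tlx3, Pax2 and Lbx1. Lhx1 (ENSMUSG00000018698, chromosome 11, 84518284 to 84525535, minus strand) had 13.46, 11.2 and 14.5 CPM in E13.5 spinal cord against 1.57, 1.89 and 2.47 CPM in E13.5 brain. Lhx5 (ENSMUSG00000029595, chromosome 5, 120431699 to 120441223, plus strand) had 18.4, 13.3 and 26.2 CPM against 1.85, 3.12 and 3.11 CPM. The 2 LIM homeobox genes were thus present in all 6 embryonic libraries, with 6.38-fold (5.23 to 7.82) and 6.27-fold (5.30 to 7.46) more in spinal cord.

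The 2 progenitor factors were less regional at E13.5. Pax3 (ENSMUSG00000004872, chromosome 1, 78101267 to 78197134, minus strand) had 11.6, 9.47 and 13.498 CPM in E13.5 spinal cord against 4.47, 2.503 and 1.77 CPM in E13.5 brain, a ratio of 3.66 (3.09 to 4.37). Pax7 (ENSMUSG00000028736, chromosome 4, 139737062 to 139833528, minus strand) had 2.20, 1.29 and 3.71 CPM against 0.427, 1.45 and 0.483 CPM. It was the factor with the lowest level in E13.5 spinal cord, and the ranges of the 2 regions overlapped, with a pooled ratio of 2.38 (1.67 to 3.44). Isl1 (ENSMUSG00000042258, chromosome 13, 116298281 to 116309689, minus strand) ran the other way, with 7.21, 6.49 and 7.26 CPM in E13.5 spinal cord and 13.4, 15.8 and 18.3 CPM in E13.5 brain. All 3 brain libraries lay above all 3 spinal cord libraries, and the spinal cord level was 0.436 of the brain level (0.383 to 0.496).

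**Figure D1:**
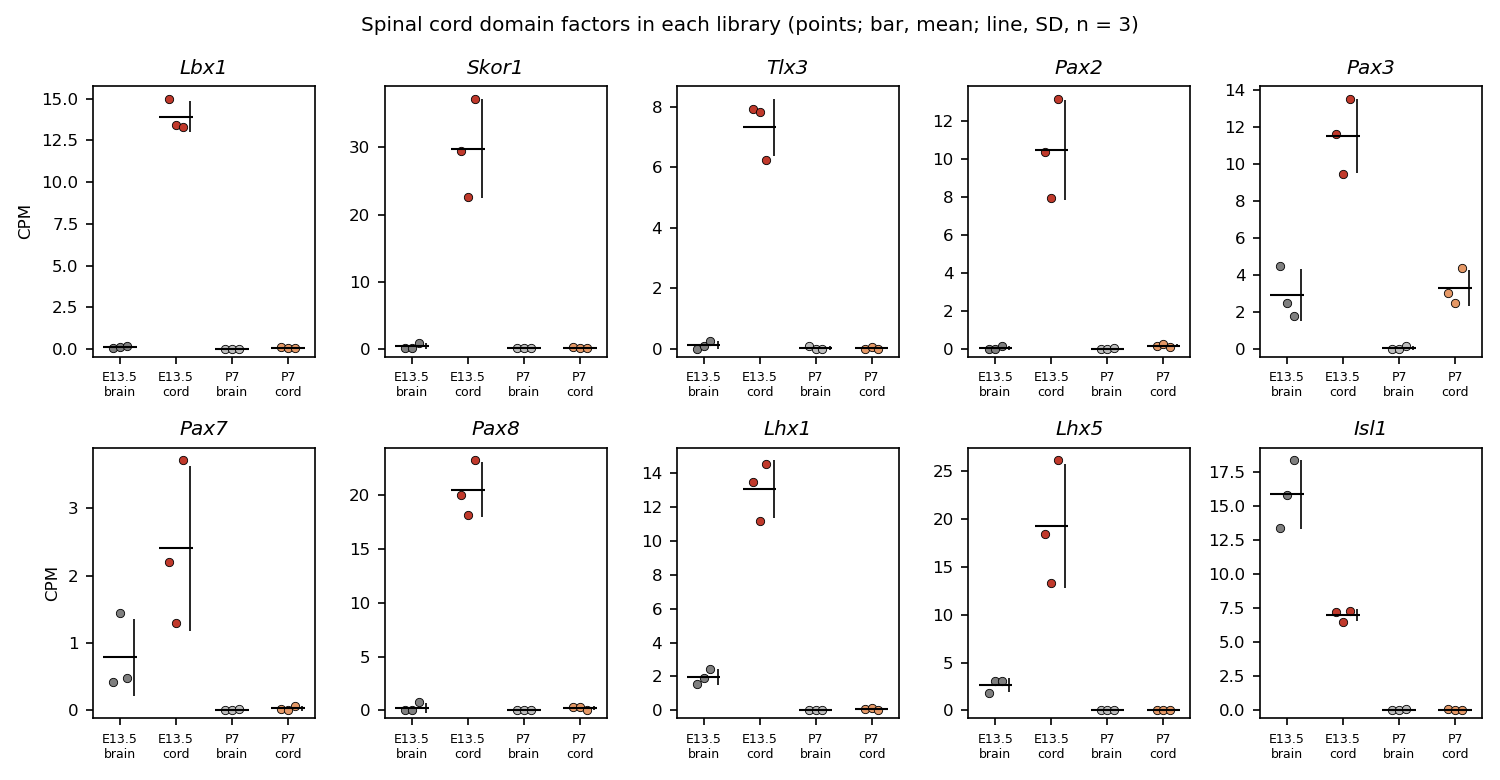
CPM of each of the 10 factors in the 12 libraries (y axis, linear scale, different for each gene), by group (x axis); points are libraries, bars are means and vertical lines are 1 SD (n = 3). The E13.5 spinal cord points stand above the rest for 9 genes, with an overlap with E13.5 brain for Pax7, while Isl1 is highest in E13.5 brain and Pax3 keeps 2.499 to 4.37 CPM in P7 spinal cord.

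Levels of different genes were compared per length, as CPM per kb of merged exons. In E13.5 spinal cord the order was Skor1 at 7.86 ± 1.93 CPM per kb (SD, n = 3), Lhx5 at 7.17 ± 2.41, Lbx1 at 5.60 ± 0.38, Tlx3 at 4.78 ± 0.61, Pax8 at 3.39 ± 0.42, Lhx1 at 3.20 ± 0.42, Pax2 at 1.94 ± 0.49, Pax3 at 1.86 ± 0.33, Isl1 at 1.76 ± 0.11 and Pax7 at 0.410 ± 0.209. Neighbours in this order had separate replicate ranges for Lbx1 and Tlx3, Tlx3 and Pax8, Lhx1 and Pax2, and Isl1 and Pax7, and the other neighbours overlapped. In E13.5 brain Isl1 led with 3.996 ± 0.63 CPM per kb, apart from Lhx5 at 1.00 ± 0.27. Lhx1 at 0.485 ± 0.112 and Pax3 at 0.471 ± 0.225 overlapped each other, and the remaining 6 factors lay at or below 0.134 CPM per kb. The factor that led in brain was therefore ninth of 10 in spinal cord.

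**Figure D2:**
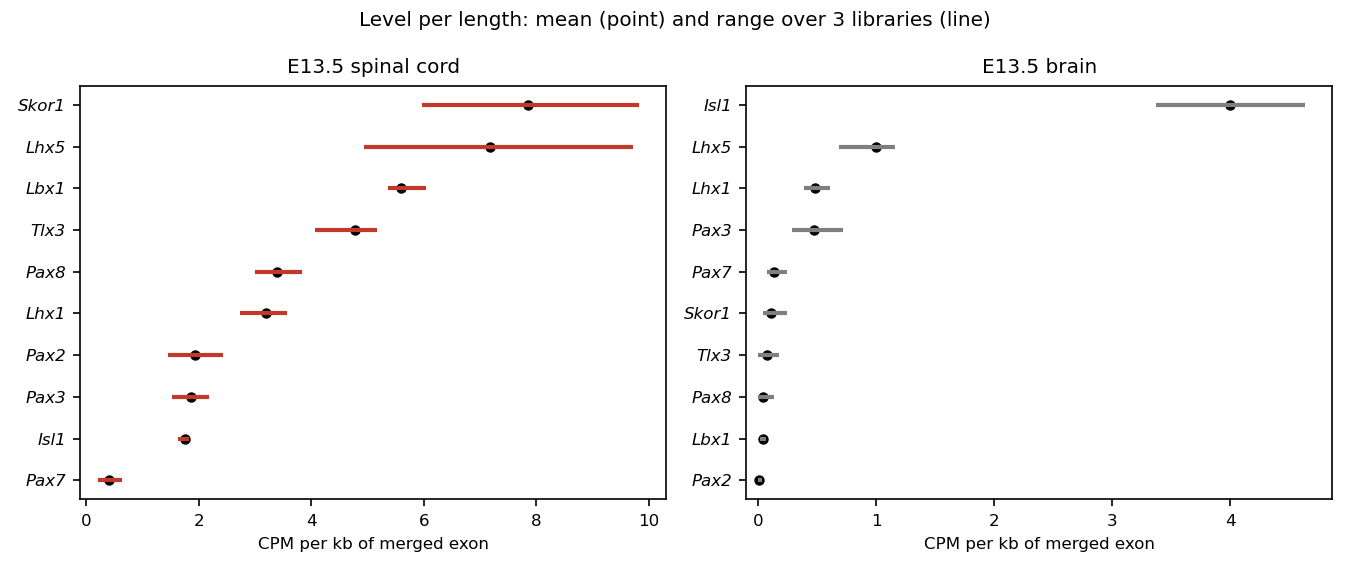
Level per length of the 10 factors in E13.5 spinal cord (left) and E13.5 brain (right), in CPM per kb of merged exon on linear axes of different length; points are means and lines the range over 3 libraries. Skor1 and Lhx5 lead in spinal cord with overlapping ranges, and Isl1 leads in brain at 3.996 CPM per kb.

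The region comparison at E13.5 asked which factors differed between spinal cord and brain. The test was limma on log2(CPM + 0.5), with genes of at least 0.7 CPM in at least 3 libraries. A call required an adjusted p (Benjamini-Hochberg, 18319 tested genes) under 0.05 together with a change over 2-fold. All 10 factors passed the filter, but Lbx1, Tlx3 and Pax2 passed only through the E13.5 spinal cord libraries and so had to differ from the other groups. Skor1, Pax7 and Pax8 passed through those libraries and 1 library of E13.5 brain. At E13.5, 8.71% of all tested genes were called for region, 5.17% higher and 3.53% lower in spinal cord. Of the 10 factors, 9 were called higher in spinal cord and Isl1 was called lower. The differences in log2 units were 5.13 ± 0.28 (SE) for Skor1, 4.93 ± 0.33 for Pax8, 4.59 ± 0.14 for Lbx1, 4.29 ± 0.20 for Pax2 and 3.68 ± 0.18 for Tlx3, with adjusted p between 6.15e-10 and 4.19e-07. They were smaller for Lhx5 at 2.61 ± 0.24, Lhx1 at 2.46 ± 0.18, Pax3 at 1.88 ± 0.28 and Pax7 at 1.17 ± 0.31, the last with an adjusted p of 0.0122. Isl1 differed by -1.12 ± 0.16 (adjusted p = 0.000216). Without E13.5 spinal cord replicate 3 the call of Pax7 was lost (0.86, adjusted p = 0.0257, under 2-fold) and the other 9 calls held. The call of Pax7 was also lost without E13.5 brain replicate 1 (0.98) and without replicate 3 (1.02, adjusted p = 0.0512).

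At E13.5 marker genes of several cell types differed between the regions beside these factors. Of 13 pan-neuronal genes, 3 were called higher in spinal cord and 0 lower, and all 3 encode intermediate filament proteins of neurons. They were Nefl (87.1 against 16.5 CPM, 2.32 ± 0.20 log2 units), Nefm (30.4 against 10.6 CPM, 1.45 ± 0.15) and Ina (76.2 against 35.3 CPM, 1.09 ± 0.11). The sum of the list, 1692 to 1959 CPM in spinal cord and 1488 to 1940 in brain, is mostly that of Map2, Dcx and Tubb3, none of them called. Among inhibitory neuron genes Slc6a5, the glycine transporter of spinal inhibitory neurons, was called higher in spinal cord (27.0 to 40.0 CPM against 0 to 0.965) and Gad1 lower. Of 5 motor neuron genes 4 were tested and all 4 were called higher in spinal cord. The 5 genes summed to 12.4 to 19.6 CPM in spinal cord against 3.75 to 6.37 in brain. Most of this sum was Slc5a7 (11.4 against 4.43 CPM on average), and Mnx1 was at 0 in the brain libraries. Of 11 sensory ganglion genes, which include the domain factors Pou4f1 and Prrxl1, 10 were tested and 6 were called higher. The sums of this list were 431 to 529 CPM in spinal cord and 243 to 278 in brain. These sums are mostly those of Ntrk3 (262 against 127 CPM on average, called) and Ntrk2 (164 against 116 CPM, not called). The 10 muscle lineage genes summed to 17.1 to 130 CPM in spinal cord, highest in replicate 3, and to 4.67 to 18.5 in brain, where Myod1 and Myf5 were at 0. Only 3 of the 10 were tested, and 2, Ttn (2.98 ± 0.73 log2 units) and Myh3 (1.60 ± 0.53), were called higher. Ttn made up most of the spinal cord sum (47.5 against 5.43 CPM on average in brain). Of 8 OPC genes 6 were called lower in spinal cord (sums of 656 to 1113 CPM against 1352 to 2508). Of 10 vascular and leptomeningeal genes 3 were called higher and 1 lower (sums of 11750 to 13137 CPM against 6310 to 9505). The part of these cell types in the differences of the 10 factors was not tested.

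From E13.5 to P7 in spinal cord, every one of the 10 factors fell. Of all tested genes 35.1% were called in this comparison. The genes called lower at P7 made up 18.2% of all tested genes. Lbx1 was at 0.108, 0.0617 and 0.0310 CPM in the P7 spinal cord libraries, from 7 reads in all. Skor1 was at 0.243, 0.154 and 0.0931 CPM, from 17 reads, and Pax8 at 0.297, 0.339 and 0 CPM, from 22 reads. These 3 factors remained just countable at P7. Pooled reads put Lbx1 203-fold (98.1 to 508), Skor1 162-fold (101 to 280) and Pax8 90.5-fold (59.4 to 145) higher at E13.5 than at P7. Pax2 kept 0.162, 0.247 and 0.124 CPM, 18 reads, and Lhx1 kept 9 reads, with none in replicate 3. Lhx5 fell to 4 reads, Isl1 to 5, Pax7 to 3 and Tlx3 to 2 over the 3 libraries.

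On the log2 scale the changes in spinal cord were -5.49 ± 0.28 for Skor1, -5.15 ± 0.24 for Lhx5, -4.91 ± 0.33 for Pax8, -4.67 ± 0.14 for Lbx1, -4.53 ± 0.18 for Lhx1, -3.99 ± 0.20 for Pax2, -3.91 ± 0.18 for Tlx3, -3.78 ± 0.16 for Isl1 and -2.37 ± 0.31 for Pax7, with a median of -4.26 over the 10 factors and 0.12 over all tested genes. The pseudocount of 0.5 bounds these values, so they understate the change of genes that reach 0. Pax3 fell least, by 1.68 ± 0.28 (adjusted p = 0.000163), and was the factor that stayed well above the 3-read level. It had 3.02, 2.499 and 4.37 CPM in P7 spinal cord, 334 reads in all, against 11.6, 9.47 and 13.498 CPM at E13.5, a ratio of 3.29 (2.85 to 3.79). Without E13.5 spinal cord replicate 3 all 10 calls held, with -1.56 for Pax3 and -5.32 for Skor1. Neuronal marker genes moved in the same comparison. Of the 13 pan-neuronal genes 7 were called lower at P7, 2 higher and 4 not. Tubb3, a neuronal tubulin, went from 293 to 19.5 CPM on average (-3.83 ± 0.18 log2 units) and Stmn2 from 85.8 to 2.17 CPM (-5.07 ± 0.25). Rbfox3, Ina, Syt1, Nefm and Nefl fell too, with changes from -1.95 to -1.59, while Elavl3 and Gap43 rose. The sum of the list, 1695 to 1724 CPM at P7, lay within its E13.5 range, and its most abundant gene, Map2, had 1070 CPM on average at P7 and 717 at E13.5. Among the inhibitory neuron genes Gad2, Slc32a1 and Slc6a5 fell, Gad2 from 29.7 to 1.25 CPM. Of the excitatory neuron genes Slc17a6 fell (-4.63 ± 0.26). All 10 vascular and leptomeningeal genes were called lower and all 8 OPC genes higher. The 10 factors together went from 112 to 158 CPM at E13.5 to 3.58 to 4.72 CPM at P7. The part of cell makeup in these changes was not tested.

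In brain 5 factors fell from E13.5 to P7, against 27.7% of all tested genes called and 16.7% called lower. Isl1 went from 13.4, 15.8 and 18.3 CPM to 0, 0.0661 and 0.0792 CPM, a fall of 4.89 ± 0.16 in log2 units (adjusted p = 4.07e-10). Lhx1 had no read in any P7 brain library, so that its E13.5 level was at least 65.8-fold higher against the level of 3 reads over the group. Lhx5 fell by 2.57 ± 0.24, Pax3 by 2.54 ± 0.28 and Lhx1 by 2.29 ± 0.18, with adjusted p of 1.26e-06, 6.54e-06 and 2.83e-07. Pax7 fell by 1.25 ± 0.31 (adjusted p = 0.00392), and its change was under 2-fold without E13.5 brain replicate 2, at -0.91. Lbx1, Skor1, Tlx3, Pax2 and Pax8, which were near 0 in brain at both ages, were not called, with changes from -0.46 ± 0.33 for Pax8 to -0.09 ± 0.20 for Pax2. In brain, too, markers of other cells moved with age. Tubb3 (-3.09 ± 0.18 log2 units) and Stmn2 (-1.39 ± 0.25) of the 13 pan-neuronal genes were called lower and 0 higher, and Gad2 (-3.85 ± 0.17), Slc32a1 and Slc17a6 (-4.07 ± 0.26) fell as well. Of 10 vascular and leptomeningeal genes 8 were called lower, among them Lum (-4.34 ± 0.27) and Col3a1 (-3.38 ± 0.33), and 1 higher. All 8 OPC genes were called higher, among them Gpr17 (4.74 ± 0.37) and Sox10 (3.49 ± 0.23). The part of these cells in the changes of the factors was not tested. On the recovered reads Lbx1, with 6 reads at E13.5 and 0 at P7, was called lower by voom, edgeR and DESeq2, and Skor1 by DESeq2.

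At P7 Pax3 was called between the regions and the other 9 factors were not, where 6.62% of all tested genes were called, 4.35% higher and 2.27% lower in spinal cord. Pax3 was at 0, 0 and 0.185 CPM in P7 brain, from 7 reads of 1 library, and its spinal cord libraries all lay above these values. The difference was 2.74 ± 0.28 log2 units (adjusted p = 2.23e-05), and pooled reads gave a ratio of 47.5 (22.8 to 119). P7 spinal cord replicate 3, with the highest Pax3 value of 4.37 CPM, also had the highest sum of the 10 vascular and leptomeningeal genes, at 2745 CPM against 1313 and 1277 in replicates 1 and 2, and without it the difference of Pax3 was 2.55 (adjusted p = 0.000136). These genes summed to 1371 to 1782 CPM in P7 brain. The part of those cells in the Pax3 level was not tested.

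Of the 9 factors not called at P7, Pax2 and Lbx1 had separate ranges in the 2 regions. Pax2 had 18 reads in P7 spinal cord and 2 in P7 brain, a ratio of 8.95 (2.14 to 79.5), and Lbx1 had 7 reads and 0, which is at least 2.32-fold higher in spinal cord. Pax2 was called by voom, by DESeq2 and with a pseudocount of 0.1, and Lbx1 by voom, edgeR and DESeq2. Pax8 had 22 reads and 0, at least 7.29-fold higher, but 1 spinal cord library had none, and Lhx1 had 9 reads and 0, at least 2.98-fold higher, and it was called by DESeq2 (3.77, adjusted p = 0.0173). Skor1, with 17 and 13 reads, had a ratio of 1.30 (0.595 to 2.91). Isl1 had 5 reads in each region, and a regional difference of its level at P7 was not detectable at this depth. No ratio is given for Tlx3 and Pax7, which had 3 reads or fewer in both regions. The 8 OPC genes summed to 11608 to 12526 CPM over the 6 P7 libraries, above the highest E13.5 sum of 2508.

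**Figure D3:**
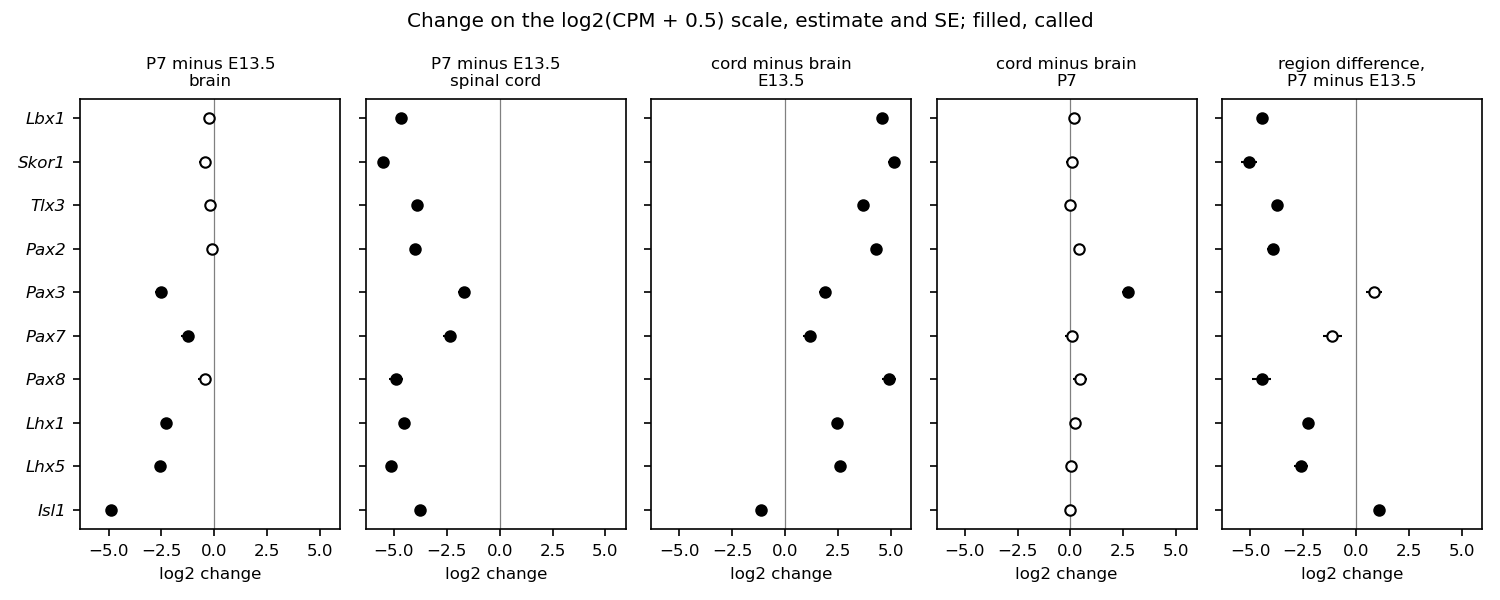
Change of each factor on the log2(CPM + 0.5) scale (x axis) in the 5 comparisons (panels), with the estimate as a point and the SE as a line; filled points were called. All 10 factors lie below 0 in the spinal cord age panel, and for spinal cord minus brain Pax3 is the 1 filled point at P7.

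The change of the spinal cord minus brain difference from E13.5 to P7 uses all 4 groups, and it shares its libraries with the comparisons above. On the log2(CPM + 0.5) scale 8 factors were called, against 16.3% of all tested genes, 9.66% higher and 6.66% lower. The difference became smaller for 7 of them, with a change of -5.05 ± 0.39 for Skor1, -4.45 ± 0.46 for Pax8, -4.41 ± 0.20 for Lbx1, -3.91 ± 0.28 for Pax2, -3.70 ± 0.26 for Tlx3, -2.58 ± 0.33 for Lhx5 and -2.24 ± 0.25 for Lhx1. For Isl1, which was higher in brain at E13.5, it moved toward 0 by 1.11 ± 0.23. Pax3 (0.86 ± 0.40, adjusted p = 0.104) and Pax7 (-1.12 ± 0.44, adjusted p = 0.0620) were not called. The 8 calls depend on the scale. Both P7 groups were near 0 for these factors, so the calls largely repeat the E13.5 difference. With nearly no reads at P7, a ratio of the regions is poorly fixed there, and edgeR on the recovered reads called 3 of the 10 factors and DESeq2 called 5, Pax3 being among them in both. Skor1 and Tlx3 were called by both tools. Voom called Pax3 and did not call Lhx1, Lhx5 and Isl1.

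Other factors of spinal cord domains were counted from 2 lists, 26 factors of progenitors and 38 of postmitotic neurons, of which 47 passed the filter. At E13.5 the postmitotic list had 15 genes called higher in spinal cord, 5 lower and 8 not called, with a median difference of 1.30 log2 units. The progenitor list had 2 higher, 9 lower and 8 not called, with a median of -0.68, and over all tested genes the median was -0.05. Of all tested genes 5.17% were called higher in spinal cord and 3.53% lower. Of the 15 postmitotic genes called higher, 9 reached 0.7 CPM in the E13.5 spinal cord libraries alone and so had to differ, Prrxl1 and Skor2 among them. The largest differences toward spinal cord were those of Prrxl1 (4.25 ± 0.15), a homeobox factor of dorsal horn and sensory neurons, Pou4f1 (3.74 ± 0.25), a POU factor of sensory and dorsal neurons, and Skor2 (3.53 ± 0.14), a relative of Skor1. Skor2 had 5.23 to 6.25 CPM in E13.5 spinal cord and no read in any P7 library. Toward brain they were those of Msx1 (-4.39 ± 0.27), Lhx2 (-4.02 ± 0.24) and Gsx2 (-2.80 ± 0.29), Lhx2 and Gsx2 being used in forebrain patterning.

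With age the progenitor list was mixed in spinal cord, with 8 genes called higher at P7, 7 lower and 4 not called. Among all tested genes 16.9% were called higher there and 18.2% lower. In the postmitotic list 22 genes were called lower, 2 higher and 4 not. The 22 include the 9 that passed the filter only through E13.5 spinal cord, so that their direction was fixed by the filter. The genes of both lists that rose most in spinal cord were Nkx2-2 (4.80 ± 0.33), Nkx6-2 (4.52 ± 0.28) and Olig2 (4.48 ± 0.28), which are known in oligodendrocyte development as well as in ventral progenitors. Ebf3 (-6.22 ± 0.25), the neuronal bHLH factor Nhlh2 (-6.00 ± 0.19) and Lmx1b (-4.77 ± 0.20), a dorsal LIM homeobox factor, fell most. Ebf3 went from 133 to 166 CPM in E13.5 spinal cord to 0.931 to 1.84 CPM at P7. In brain 12 progenitor factors were called lower, 4 higher and 3 not, and 16 postmitotic factors were called lower, 0 higher and 12 not. Over all tested genes in brain, 16.7% were called lower and 11% higher. Nkx2-2 (4.11 ± 0.33), Dbx2 (3.55 ± 0.16) and Olig2 (2.66 ± 0.28) rose most there, while Neurog2 (-4.95 ± 0.21), Ebf3 (-4.76 ± 0.25) and Lhx9 (-4.71 ± 0.25) fell most.

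At P7 a regional difference was called for 11 of the 47 other factors, 8 higher and 3 lower in spinal cord. Of all tested genes 6.62% were called in this comparison, 4.35% higher and 2.27% lower. Irx5 (4.45 ± 0.31) and Nkx6-2 (3.93 ± 0.28) differed most among those higher in spinal cord, followed by Onecut2 (3.31 ± 0.28). Irx5 had 15.6 to 16.1 CPM in P7 spinal cord and 0.0331 to 0.819 CPM in P7 brain. Lhx2 (-4.39 ± 0.24), Gsx2 (-2.10 ± 0.29) and Msx1 (-1.84 ± 0.27) were lower in spinal cord. With the authors' scaling the median change of all tested genes was 0.19 in this comparison, -0.19 in brain and 0.12 in spinal cord with age, and 0.24 for the interaction of region and age. With TMM scaling these medians were -0.01, -0.01, 0.06 and 0.0047.

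**Figure D4:**
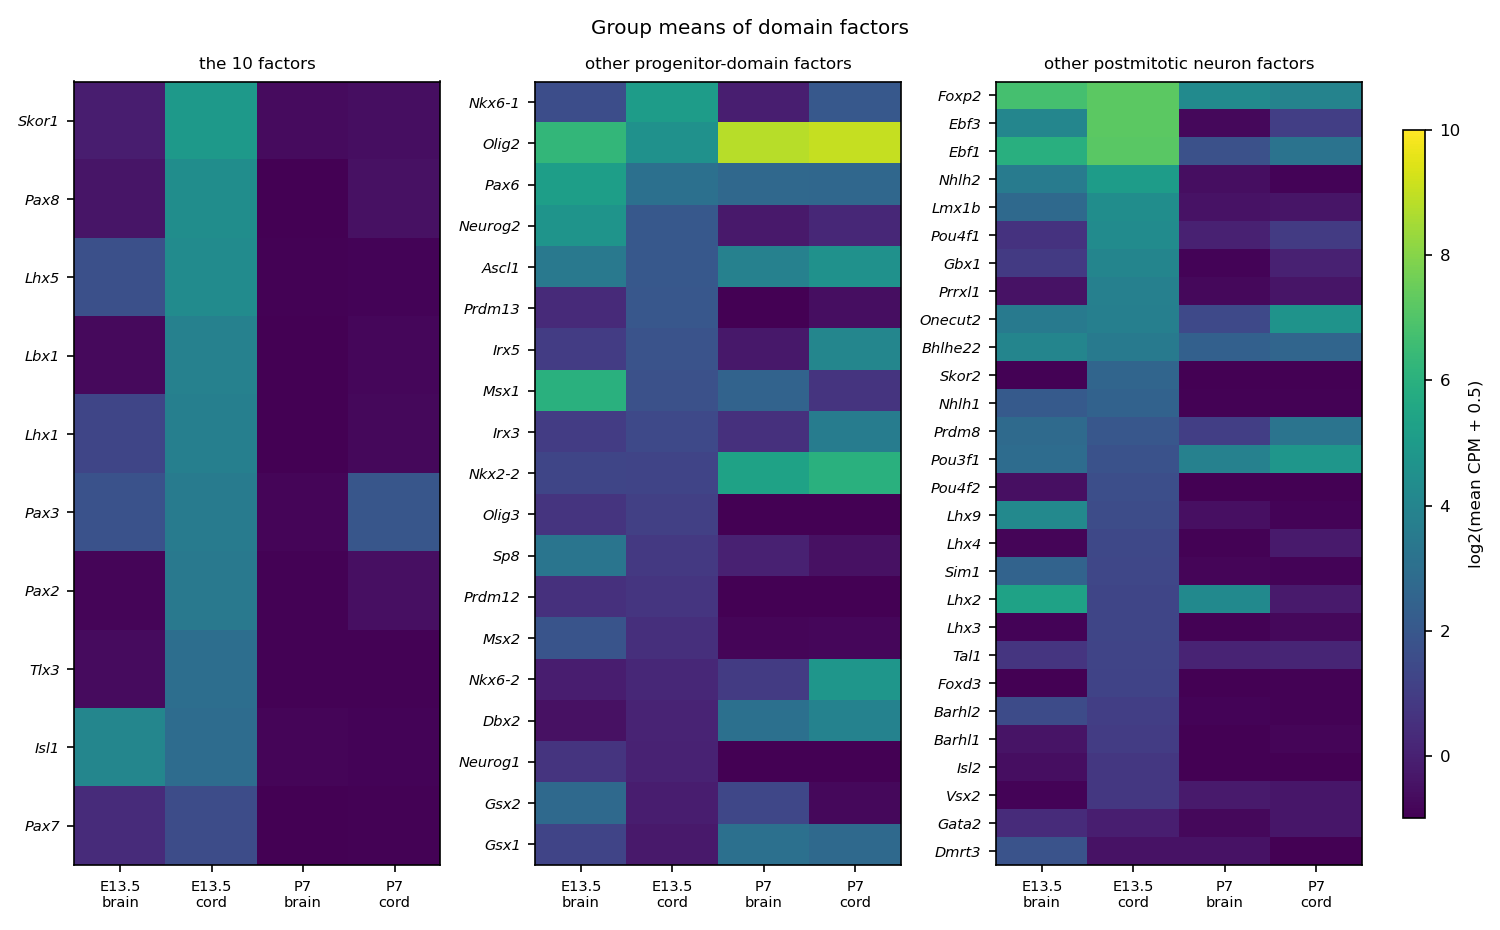
Group means as log2(mean CPM + 0.5) (colour) of the 10 factors and of the 47 other domain factors that passed the filter, ordered within each list by E13.5 spinal cord. The 10 factors are dark in both P7 groups except for Pax3 in spinal cord, while Olig2 and Nkx2-2 of the progenitor list are brighter at P7 than at E13.5.

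The profiles of the 10 factors were compared over the 12 libraries, as the root mean square difference of log2(CPM + 0.5) after centring each gene on its own mean. Skor1 and Pax8 were nearest to each other at 0.266, followed by Lhx1 and Lhx5 at 0.296 and Lbx1 and Pax2 at 0.300. Isl1 was farthest from Skor1, at 2.32. Among other genes the nearest were Lamp5 to Pax8 (0.170), Lamp5 to Skor1 (0.341), Klhl14 to Tlx3 (0.207), Myocd to Lbx1 (0.285), Cyp2s1 to Pax2 (0.371), Casz1 to Lhx1 (0.269), Acta2 to Lhx5 (0.375), Greb1 to Pax7 (0.271), Lsp1 to Pax3 (0.425) and Lum to Isl1 (0.408). Lamp5 had 28.3 CPM on average in E13.5 spinal cord and 0.255 to 0.617 CPM in the other group means. For Pax3 the next nearest were Thsd4 and A2m, and Lsp1, the nearest, had 9.12 CPM on average in P7 spinal cord and 1.66 in P7 brain.

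Transcripts beginning next to these factors on the other strand were measured too, and those named here were chosen after their values were seen. Lhx1os, a noncoding RNA whose start lies 125 bases from that of Lhx1 and so within the window printed above, had 10.7, 7.51 and 8.94 CPM in E13.5 spinal cord and 0.903, 0.439 and 0.751 CPM in E13.5 brain. It was called higher in spinal cord by 3.00 ± 0.18 log2 units, beside 2.46 ± 0.18 for Lhx1, and it had 12 reads in P7 spinal cord and 2 in P7 brain. Gm12116, whose start is 466 bases from that of Tlx3, had 4.23, 5.02 and 3.71 CPM in E13.5 spinal cord and 0, 0 and 0.375 CPM in E13.5 brain. Gm27199 begins 68 bases from Lhx5 and shares 69 exonic bases with it. It had 1.67, 1.56 and 2.02 CPM in E13.5 spinal cord and no read at P7. Gm13415 overlaps 367 exonic bases of Pax8 and stayed at or below 0.0296 CPM in every group mean. Whether reads were counted by strand is not stated, so reads of Lhx5 and Pax8 cannot be told apart from those of these partners where they overlap. In 50-base windows of the transcripts, Pax8 shared 276 with Gm13415, and Lhx5 shared 38 and Pax3 shared 17 with other genes.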

How the data were processed

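Total RNA was sequenced by the authors from GFP+ cells of 12 samples. Per the study's methods and the submitters' processing notes, read pairs were mapped to mm10 with STAR 2.5.0a and assigned to GENCODE genes with featureCounts 1.5.0-p1. Reads with several positions were shared out fractionally and sums were rounded. The authors deposited CPM values without a log, on a library size multiplied by a scaling factor. In 3 columns these values sum to more than plain CPM allows, so they are deposited as a scaled signal rather than plain CPM. All values (100% within 0.01) were whole multiples of 1 read, and reads were recovered from these steps.

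Genes reaching 0.7 CPM in 3 or more libraries were tested with limma 3.58.1 (R 4.3.3, intensity trend) on log2(CPM + 0.5), with 1 mean per group over 12 libraries and 5 contrasts. The p-values were adjusted by Benjamini-Hochberg over 18319 genes, and calls also needed a change over 2-fold. The study used voom, which was run here on the recovered reads as an alternative, as were edgeR 4.0.16 and DESeq2 1.42.0, in 25 alternative settings in all. The scripts were tested on simulated data. Positions and exon lengths came from GENCODE M21 on the same build, and start sites from RefSeq. Ratios use pooled reads with exact conditional intervals at 95%, and groups with 0 reads were set to 3 reads over the group.

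The 10 factors and the lists were chosen with earlier results of these data known, and several of the factors are ones the study itself points to in these samples. The rule for names covers all 10 factors, the 3 largest calls per direction among other domain factors in each contrast, and the 3 genes nearest in profile to each factor, with at least 1 CPM on average. Markers are named where their level is a check. No sample column was left out (0 not used). Genes next to a factor are named from a search within 10000 bases. A gene of the marker lists is not reported here.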

Additional observations from a re-analysis of the deposited data

Results flagged for a closer look

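For 8 of the 10 factors the effect of age was called different between brain and spinal cord, where 16.3% of all tested genes were called. This was a test of the difference itself (limma, interaction on the log2(CPM + 0.5) scale). The 8 factors were near 0 in both P7 groups, so on this scale the interaction largely repeats their E13.5 region difference. With edgeR 3 of the 10 factors were called and with DESeq2 5. Voom called Pax3 and did not call Lhx1, Lhx5 and Isl1. The change of the spinal cord minus brain difference from E13.5 to P7 was -5.053 for Skor1, -4.453 for Pax8, -4.413 for Lbx1, -3.908 for Pax2, -3.702 for Tlx3, -2.58 for Lhx5, -2.237 for Lhx1 and 1.107 for Isl1. Of the other domain factors named by the rule, it was 3.582 for Irx5, 3.58 for Nkx6-2, 3.102 for Neurog2, -3.847 for Prrxl1, -3.525 for Skor2 and -2.822 for Pou4f1. Skor1, Pax8, Lbx1, Pax2, Tlx3, Lhx5, Lhx1 and Isl1 were near 0 in both regions at P7, and Skor2 had no read at P7. Lbx1, Tlx3, Pax2, Prrxl1 and Skor2 passed the filter on low values only through the E13.5 spinal cord libraries, so that the direction of their values was fixed by the filter.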

How the results depend on the processing

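Of 25 alternative settings, most left counts within 1.5 times the reported ones, and 237 of 248 such comparisons did. The counts of calls at P7 between regions rose from 1 factor to 2 with a pseudocount of 0.1, 3 with voom, 2 with edgeR and 4 with DESeq2, and from 11 other domain factors to 18, 19, 18 and 19. In the interaction of region and age, 8 factors became 3 with edgeR and 5 with DESeq2, and 33 other domain factors became 19 with edgeR. The interaction of Lhx1 was -0.7191 with voom and reversed to 1.437 with edgeR and 0.9606 with DESeq2, none of them called. It was also not called for Lhx5 and Isl1 with voom, edgeR and DESeq2, for Pax8 with edgeR and DESeq2, and for Lbx1, Pax2 and Skor2 with edgeR. It was not called for Isl1 with a pseudocount of 0.1, with median-ratio scaling or without E13.5 brain replicate 3, and it was called for Pax7 without E13.5 brain replicate 2 or E13.5 spinal cord replicate 2. Pax3 was called there with a pseudocount of 0.1, voom, edgeR, DESeq2 and without E13.5 brain replicate 3. The call of Pax7 in brain with age was lost with a pseudocount of 1, and that of Pax7 at E13.5 with a pseudocount of 1 and with only the 2 groups compared. The cause was not tested. Leaving out 1 library in turn turned the sign of uncalled values near 0. These ran from -0.1529 to 0.04829 for Pax2 in brain with age and, between regions at P7, from -0.0803 to 0.05595 for Tlx3, -0.01255 to 0.06994 for Lhx5, -0.008454 to 0.1542 for Skor1 and -0.08727 to 0.05381 for Isl1. Leaving out 1 library in turn gave 4 to 5 calls in brain with age, 10 in spinal cord with age, 9 to 10 at E13.5, 1 at P7 and 8 to 9 for the interaction. These fits kept the genes of the full test.

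Under a replicate block the counts of called factors were the same, at 5, 10, 10, 1 and 8. Same-numbered brain and spinal cord libraries had correlated deviations of 0.314, 0.082 and 0.412 at E13.5 and 0.0127, 0.0247 and 0.0445 at P7, so the numbers were not taken as pairs. Not every library correlated best with its own number.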
